A study of Homo sapiens with 47 samples.

Results

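The genes described here are the clustered histone genes of chromosome 6. They were taken from the expression table as all genes whose symbol starts with HIST1H, after the rows with a pseudogene ending (PS and digits) were left out. Of 67 such rows, 12 had the pseudogene ending, which left 55 of the 57507 genes of the table: 6 for the linker histone H1, 12 for H2A, 15 for H2B, 10 for H3 and 12 for H4. RNA was sequenced from 47 libraries of NUP58-edited and unedited human cells. NUP58 encodes a component of the nuclear pore complex, and its hypomorphic (partial loss of function) alleles were made with CRISPR-Cas9. The 32 HAP1 libraries come from 8 lines with 4 replicates a line, namely wild type (WT), cells given the Cas9 vector without a guide (EV) and 6 mutant clones, C1 to C6. HAP1 is a near-haploid human line derived from chronic myeloid leukemia. Each clone grew from a single edited cell and carries its own NUP58 mutations, so its 4 libraries repeat 1 clone and not the mutation. The clones were the smallest viable colonies, and their RNA was taken at passage 1. The 15 libraries of HCT116, a human colorectal carcinoma line, are 4 labelled as 1 NUP58 clone and 11 unedited controls. Of the controls, 2 are labelled WT, 3 EV1 and 4 EV2, the EV lines having received Cas9 without a guide. The title and the genotype disagree for the other 2 controls, both numbered 4, which therefore entered no line mean.

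Histone genes of this cluster are replication dependent: they supply the histones that package new DNA and are transcribed mainly in S phase. Their mRNAs are unusual among mRNAs of animals in ending in a short stem-loop instead of a poly(A) tail. The stem-loop is bound by the protein SLBP and is cut just downstream by a complex that contains the U7 snRNP with LSM10 and LSM11, while the factor NPAT, activated by cyclin E and CDK2, drives transcription in nuclear bodies that hold the cluster. Some of these genes are also known to give polyadenylated transcripts, mainly in cells that leave the cycle. Replication-independent variants such as H2AFZ, H3F3A or H3F3B are made throughout the cycle from ordinary polyadenylated mRNAs. The labels and methods do not say whether the libraries were made from poly(A)-selected or total RNA.

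The stem-loop is shown first because it is the sequence that defines this class of genes. It was searched on the coding strand in the 150 bases after each stop codon of the GENCODE 44 annotation (GRCh38) as GG, any 2 bases, CTTTT, any base, AG, any 2 bases and CC. Of the 53 members with an annotated stop codon, 50 (94.3%) held it, against 20 of 19547 other coding genes (0.102%). On the opposite strand, 4 of the 19600 coding genes (0.0204%) and 0 of the 53 members held it. HIST1H3E, HIST1H2BI and HIST1H4L had no match in this window. Capitals mark the stem-loop in the 6 most abundant members, with 5 bases on each side, and the lines give the strand of the mRNA.
HIST1H2BK, chr6:27146361-27146386, minus strand: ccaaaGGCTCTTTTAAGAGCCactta
HIST1H1C, chr6:26055739-26055764, minus strand: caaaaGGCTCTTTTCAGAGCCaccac
HIST1H2BD, chr6:26158582-26158607, plus strand: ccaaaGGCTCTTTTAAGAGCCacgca
HIST1H2AC, chr6:26124664-26124689, plus strand: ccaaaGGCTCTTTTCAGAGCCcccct
HIST1H2BC, chr6:26123467-26123492, minus strand: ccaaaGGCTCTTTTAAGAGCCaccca
HIST1H2BN, chr6:27839085-27839110, plus strand: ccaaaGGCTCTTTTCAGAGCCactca
The stem and loop differed between these genes at a single loop base. Over all members, 29 shared the form of HIST1H1C, 8 that of HIST1H2BK and 9 a form with a further C-G pair in the stem.

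Promoters were taken from RefSeq (GRCh38, 250 bases before to 50 after the start) and matched 50 of the 55 members. The motifs searched, on both strands and with none contained in another, were TATAAA (the TATA box), CCAAT, and ATTTGCAT, the octamer that the factor POU2F1 recognizes. TATAAA was in 34 of the 50 members (68%) against 14% of the 27305 genes with a promoter in the RefSeq table. CCAAT was in 43 (86%) against 39.7%, and the octamer in 22 (44%) against 2.19%. The octamer followed the family: it was in 9 of 11 H2A and 12 of 15 H2B promoters, in 1 of 8 H3 promoters and in 0 of 6 H1 and 0 of 10 H4 promoters. CCAAT was present in every matched H1, H2A, H2B and H3 promoter but in only 3 of 10 H4 promoters. A pair of stretches is shown because the results turn on their genes, with matches in capitals. The first is the 150 bases before HIST1H2BK (chr6:27146859-27147008, minus strand), the most abundant member. The second is the 245 bases between the RefSeq starts of HIST1H2BC, which runs to the left, and HIST1H2AC, which runs to the right (chr6:26123927-26124171, plus strand).
HIST1H2BK: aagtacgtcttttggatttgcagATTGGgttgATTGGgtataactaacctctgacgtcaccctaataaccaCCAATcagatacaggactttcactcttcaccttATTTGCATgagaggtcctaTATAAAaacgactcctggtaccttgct
HIST1H2BC and HIST1H2AC: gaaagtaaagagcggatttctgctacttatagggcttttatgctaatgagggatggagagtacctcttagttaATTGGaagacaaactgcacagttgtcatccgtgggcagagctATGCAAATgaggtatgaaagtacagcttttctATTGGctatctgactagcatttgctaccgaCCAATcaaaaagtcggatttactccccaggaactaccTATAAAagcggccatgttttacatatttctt
Both stretches held all 3 motifs, and the octamer of the shared stretch was single, so that HIST1H2BC and HIST1H2AC have it in common.

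The values are FPKM, fragments scaled to transcript length and to the fragments mapped in the library. This puts genes of different length on a common scale. Since the library selection is not given, levels may not be comparable between RNAs with and without a poly(A) tail. FPKM do not give the fragment count of a gene, so values carry no counting interval. FPKM summed to between 604053 and 721992 per library, and the depth estimated from the lowest values was 0.753 to 1.16 on a relative scale common to all libraries. NUP58 was 41.3 ± 8.07 FPKM in WT (SD, n = 4), 40.3 ± 4.57 in EV (SD, n = 4) and 7.98 to 28.0 in the 24 libraries of the HAP1 clones. In HCT116 it was 40.5 ± 9.47 in the controls (SD, n = 11) and 29.4 ± 10.3 in the clone (SD, n = 4), where the library labelled Clone replicate 3 had 44.7 and that labelled EV2 replicate 3 had 23.9, each against its label. The 10 epithelial markers summed to 1475.4 to 2748.9 FPKM in HCT116, although CDX1 and VIL1 were at or near 0, and to 22.2 to 66.4 in HAP1. Of 10 leukocyte and myeloid markers, KIT was the only one with a mean above 1 FPKM in HAP1, and PTPRC, SPI1 and GATA1 were listed at 0 in all 32 HAP1 libraries.

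Most members were hardly detected. Of all member values 59.5% were 0, against 67.5% of the values of all genes in the table. Of the 55 genes, 13 were listed at 0 in all 47 libraries, and 6 were above 0 in every library. A line mean of 1 FPKM was reached by 15 members in at least 1 of the 12 lines, by 13 in HAP1, by 10 in HCT116, by 8 in both cell lines and by 3 in every line. The 15 were 1 of 6 H1 genes, 4 of 12 H2A, 5 of 15 H2B, 3 of 10 H3 and 2 of 12 H4 genes. The members together made 16.6 to 71.3 FPKM per HAP1 library and 16.3 to 65.2 per HCT116 library. The 12 replication-independent histone genes made 1855.4 to 2827.0 FPKM in HAP1 and 2248.3 to 3619.8 in HCT116, and the 21 histone genes of the other clusters made 7.14 to 34.4 and 6.26 to 19.6. The 29 rows of other RNAs without a poly(A) tail (RN7SK, RMRP, SCARNA2 and others) summed to 103 to 429 FPKM over all libraries.

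HIST1H2BK, an H2B gene, was the highest member with a mean of 16.8 FPKM over the 12 line means and a highest line mean of 26.1 in C3. It made 20% to 57.9% of the members' total in HAP1 libraries (median 49.0%) and 13.7% to 35.1% in HCT116 libraries (median 29.9%). HIST1H1C, which encodes the linker histone H1.2, followed with a mean over lines of 6.01 and was highest in HCT116 WT (10.9). The H2B gene HIST1H2BD had 3.32 and the H2A gene HIST1H2AC 2.72, both highest in the HCT116 clone at 6.93 and 4.36. The remaining 11 of the 15 had lower means over lines. HIST1H2BC had 1.39, HIST1H2BN 1.09, HIST1H2AG 0.706, HIST1H2BJ 0.658, HIST1H3E 0.647 and HIST1H4H 0.593 FPKM. HIST1H3H, HIST1H2AE, HIST1H4D, HIST1H3B and HIST1H2AJ had 0.158 to 0.555 and reached 1 FPKM in 1 or 2 lines each.

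HIST1H2BK had a higher line mean than HIST1H1C in all 12 lines. In HAP1 the means were 21.8 and 3.78 FPKM in WT, 22.8 and 7.76 in C1, and 9.38 and 2.16 in C6. In HCT116 they were 16.5 and 10.9 in WT, 7.06 and 6.92 in EV1, 13.5 and 9.86 in EV2 and 11.5 and 7.84 in the clone. The spread of HIST1H2BK and HIST1H1C overlapped in HCT116, where HIST1H2BK ran from 3.22 to 19.5 and HIST1H1C from 2.45 to 17.8 over 15 libraries. HIST1H2BD and HIST1H2AC are neighbours in the order of levels and were not separated either, with 0.958 to 5.55 against 0.421 to 8.40 FPKM in the 32 HAP1 libraries.

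**Figure D1:**
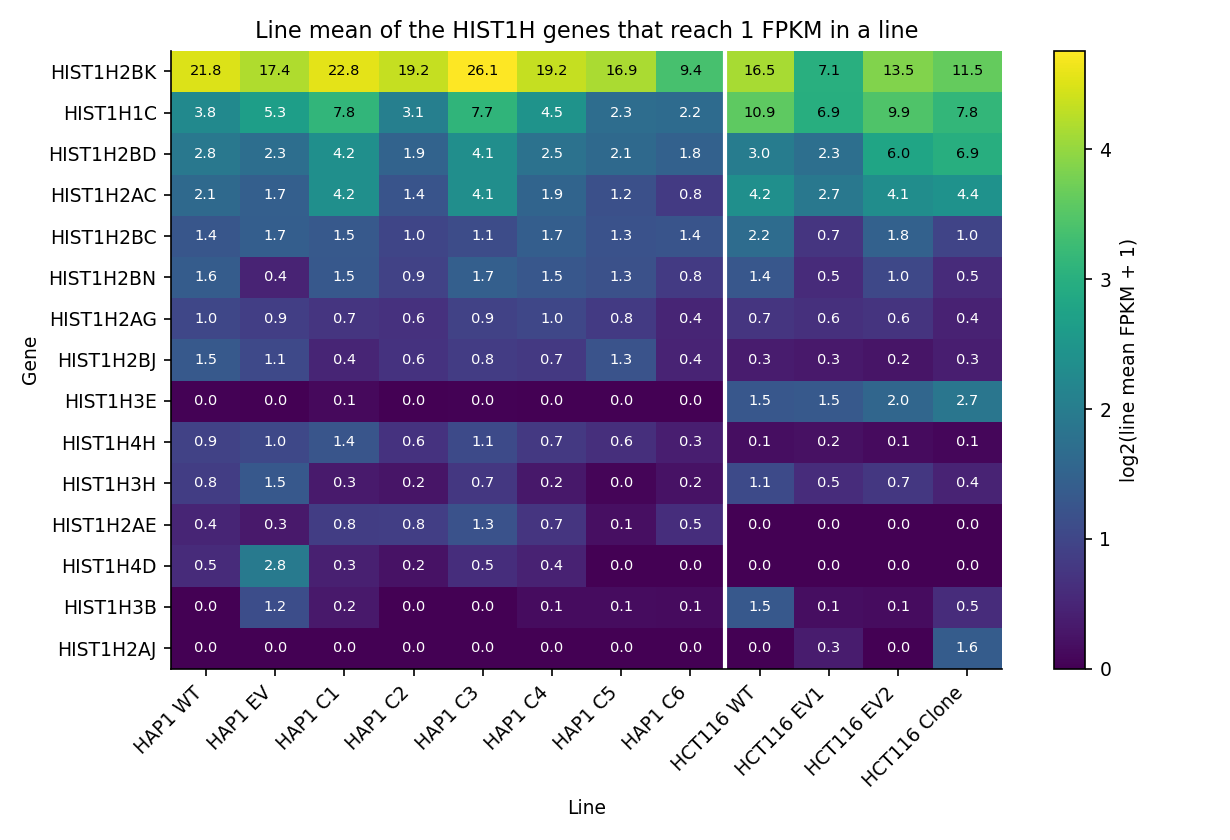
Line mean FPKM of the 15 clustered histone genes that reach 1 FPKM in at least 1 line (rows, ordered by mean over lines) in the 8 HAP1 and 4 HCT116 lines (columns). Numbers are line means and color is log2(line mean FPKM + 1). HIST1H2BK is the highest gene in every line and lowest among the HAP1 lines in C6 (9.38), and HIST1H3E is near 0 in HAP1 and 1.46 or more in HCT116.

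Among the lines, the number of members at 1 FPKM or more was lowest in C2 and C6, with 4 each, and highest in EV, with 10. WT and C3 had 8 each, and C1, C4 and C5 had 7 each, while the HCT116 lines had 5 to 9. Just inside the threshold were HIST1H2AG with a highest line mean of 1.02 and HIST1H2AE with 1.30. Just outside were HIST1H2BG with 0.949 and HIST1H2AH with 0.934. Some members passed through few libraries: HIST1H4D was above 0 in 10 of 47 and reached 2.84 in EV through 2 libraries with 4.23 and 7.15, while the other 2 were listed at 0. HIST1H2AJ was above 0 in 5 libraries, and 55.8% of its windows of a read's length also occur in other genes, so that its reads are not assigned with certainty. Of the 53 members with sequence, 45 shared no such window with another gene. The annotated span of HIST1H2BC runs over HIST1H4C and HIST1H1T, and the strand setting of the counting is not given in the sources used here. The 40 members that never reached 1 summed to 1.30 to 9.57 FPKM per library, and their sum in C6 (3.33 ± 0.347; SD, n = 4) was below the line means of the other 7 HAP1 lines, 4.02 to 6.97. Single libraries overlapped, since C6 ran from 3.04 to 3.83 while WT went down to 1.84 and C5 to 2.5.

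Members that share a promoter were not equally abundant. There were 10 pairs of an H2A and an H2B gene that start within 500 bases of each other and run apart. Both genes reached 1 FPKM in 2 pairs, 1 gene in 4 and neither in 4. HIST1H2BK reached 26.1 FPKM, and HIST1H2AH, whose start lies 250 bases away, 0.934. HIST1H2BN reached 1.73 and its partner HIST1H2AK 0.761. Presence of the octamer did not separate the abundant members either, since it was in 7 of 15 members that reached 1 FPKM (46.7%) and in 15 of 35 that did not (42.9%).

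The annotation also differed between members. In GENCODE 44 the canonical transcripts end 0 to 18 bases past the stem-loop. Another annotated transcript that ends over 100 bases past it was present for 7 of 13 members that reached 1 FPKM and for 2 of 37 that did not. The 7 were HIST1H2BC (ending 37155 bases past), HIST1H2BN (16604), HIST1H2AC (14432), HIST1H2BD (12747), HIST1H4H (7522), HIST1H2BJ (6424) and HIST1H3H (769). HIST1H2BK and HIST1H1C, the highest 2, have 1 annotated transcript each, which ends 5 and 4 bases past the stem-loop. Which transcript the fragments came from cannot be read from gene values, and no test was made.

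Across the HAP1 lines, HIST1H2BK was at a like level in most lines and low in C6. Its 4 replicates had 5.68, 20.3, 32.3 and 29.1 FPKM in WT and 11.3, 10.2, 22.8 and 25.4 in EV. In C1 they had 21.8, 17.7, 18.5 and 33.2, and in C2 19.0, 17.0, 15.7 and 25.3. The unedited lines spread widely, and C2 lay within that spread, as did C1 but for its highest library. C3 had 23.6, 14.2, 33.1 and 33.4, C4 19.6, 14.7, 19.0 and 23.4, and C5 15.7, 15.2, 23.5 and 13.3. C6 had 9.58, 10.5, 4.39 and 13.1. All 4 libraries of C6 were therefore below all 20 libraries of the other clones, the closest being 13.1 in C6 and 13.3 in C5. Its lowest library, 4.39, was also below the lowest of WT, 5.68, while the other 3 were above it.

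HIST1H1C was highest in C1 and C3 and lowest in C5 and C6. It had 3.34, 16.0, 2.06 and 9.64 FPKM in C1 and 6.01, 8.51, 6.91 and 9.44 in C3. It had 1.65, 2.82, 2.61 and 1.96 in C5 and 2.01, 1.32, 1.55 and 3.78 in C6. The high mean of C1 (7.76 ± 6.41; SD, n = 4) rested on 2 libraries, replicates 2 and 4, which were also the higher ones in C2, C3 and C4. All 4 libraries of C3 were above all 4 of WT, which had 2.53, 4.42, 5.62 and 2.56. HIST1H2AC had the same lines at both ends, with line means of 4.18 in C1, 4.09 in C3 and 0.757 in C6. Its replicates in C6 had 1.25, 0.425, 0.421 and 0.937 FPKM, and those in WT 2.21, 1.05, 2.39 and 2.70. The 2 lowest values of HIST1H2AC in HAP1 were both from C6.

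**Figure D2:**
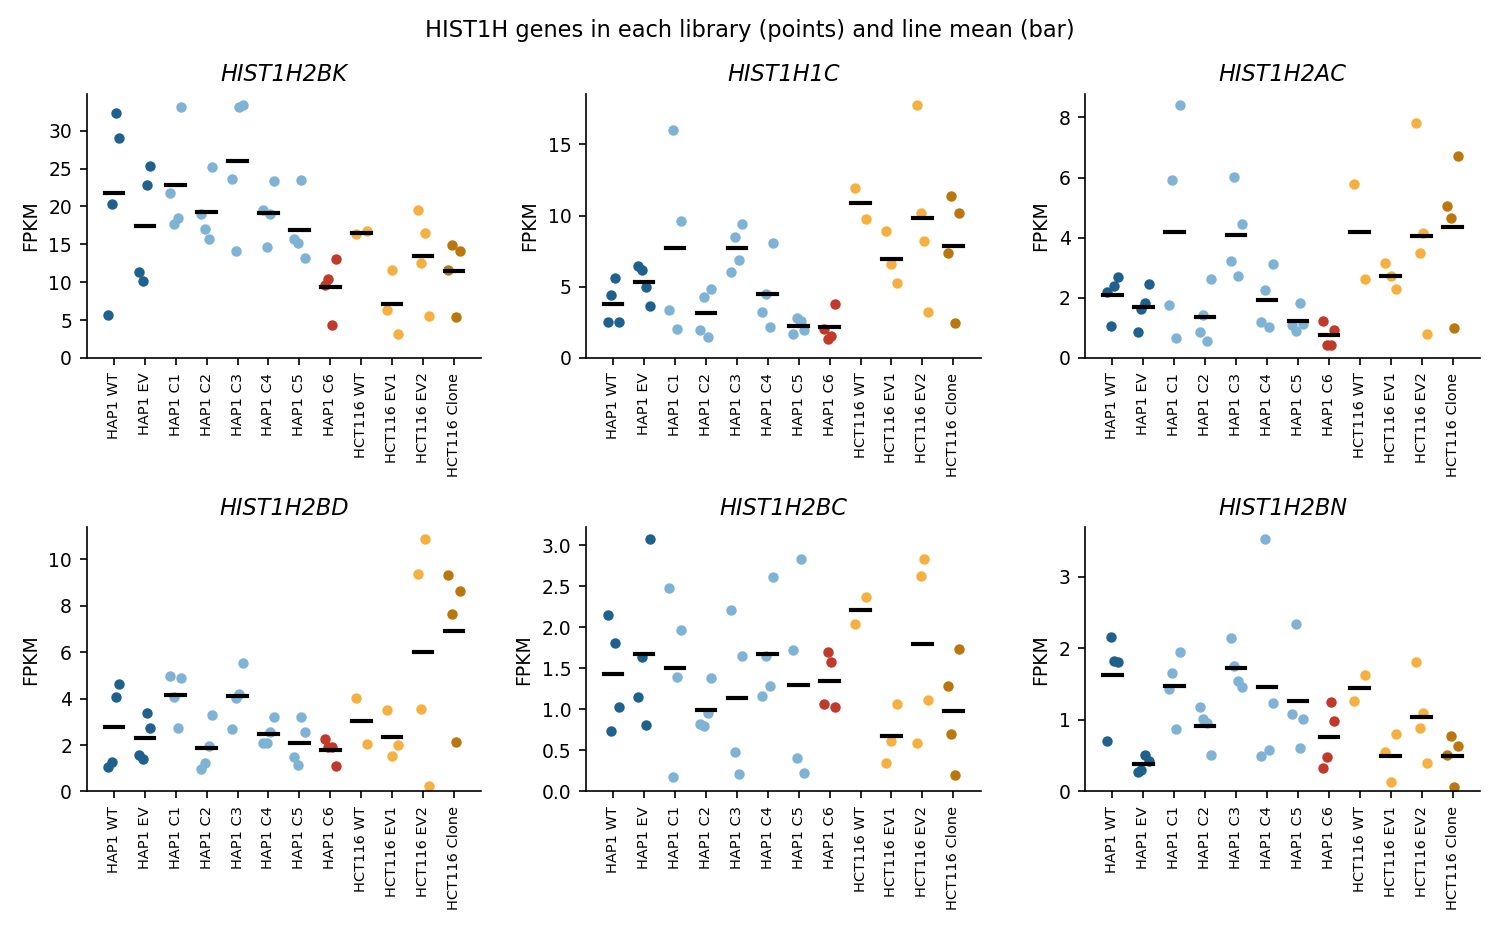
FPKM of the 6 most abundant clustered histone genes in each library (points) with the mean of each line (bars), for 8 HAP1 and 4 HCT116 lines, without the 2 controls of conflicting labels. The 4 libraries of C6 (red) lie between 4.39 and 13.1 for HIST1H2BK, under every library of C1 to C5, while for HIST1H2BC they lie within the other lines.

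Lines were compared with the moderated test of limma, on the log2(FPKM + 1) scale, which understates changes of low genes. A gene was tested where its mean over the compared libraries was at least 1 FPKM, and called where its p, adjusted by Benjamini-Hochberg over all genes tested, was under 0.05. Replicates are not stated to come from separate thaws or cultures of a clone, so p-values measure the spread between these libraries. A test of any difference among the 8 HAP1 lines, added after the data were seen, called 21.5% of 13180 genes. It called 2 of the 6 members tested, HIST1H1C (F = 3.77, adjusted p = 0.0294) and HIST1H2AC (F = 3.50, adjusted p = 0.0403). The other 4 were not called, HIST1H2BN with an adjusted p of 0.0772, HIST1H2BD with 0.0914, HIST1H2BK with 0.143 and HIST1H2BC with 0.970. Without C6, 0 of the 6 were called, while 1444 of 13119 genes were. With the replicate number as a block, 5 of the 6 were called, and 4603 genes in place of 2836.

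C6 was then set against the mean of the other 5 clones in the fit of all 32 HAP1 libraries. Of the 6 members tested, 5 had a lower value in C6 and 2 passed the test, both lower: HIST1H2BK and HIST1H2AC. Over all 13180 genes, 16.3% were called and 6.71% were called lower. Since only 6 of the 55 members passed the filter, the count says nothing of the others. The median difference of the 6 was -0.61 on the log2 scale, against 0.04 over all genes tested. RNA of whole cultures was measured, so that fewer cells with the transcript and less transcript per cell cannot be told apart.

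HIST1H2BK was 9.38 ± 3.65 FPKM in C6 (SD, n = 4) and 20.8 ± 6.35 in the other clones (SD, n = 20), and the log2 difference was -1.10 with a standard error of 0.294 (limma, adjusted p = 0.00902). Permuting the 4 and 20 libraries exactly gave a two-sided p of 0.000188, the smallest it can give for groups of these sizes. The lack of overlap fixes this value, so it adds nothing to the ranges. The permutation also treats libraries of different clones as exchangeable, although the 4 libraries of a clone repeat that clone. Its p-values for HIST1H2BK and HIST1H2AC therefore describe libraries and not clones. Without C6 replicate 3, which had 4.39 FPKM, the difference was -0.82 and the adjusted p 0.0908 in limma. HIST1H2AC was 0.757 ± 0.406 in C6 (SD, n = 4) and 2.56 ± 2.12 in the other clones (SD, n = 20), and the log2 difference was -0.85 with a standard error of 0.290 (limma, adjusted p = 0.0439). Its groups overlapped, since the other clones ranged from 0.573 to 8.40, and the exact two-sided permutation p was 0.0143. Leaving out a single library ended the call of HIST1H2AC in 13 of 24 cases.

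The other 4 tested members did not pass. HIST1H1C differed by -0.78 on the log2 scale (2.16 against 5.07 FPKM, adjusted p = 0.0797 from limma) and passed only without C1 replicate 3 among the 24 cases of a library left out (-0.86, adjusted p = 0.0305 from limma). It also passed when the fit was blocked by replicate number (adjusted p = 0.0344 from limma). HIST1H2BD differed by -0.43 (1.79 against 2.95 FPKM, adjusted p = 0.223) and HIST1H2BN by -0.40 (0.760 against 1.37 FPKM, adjusted p = 0.210). HIST1H2BC, which shares its promoter stretch with HIST1H2AC, was 1.35 against 1.32 FPKM, a log2 difference of 0.09 (standard error 0.272, adjusted p = 0.872). With C5 as the only reference, the log2 difference of HIST1H2BK was -0.84 (limma, adjusted p = 0.187) and 0 members were called. How many of all genes were called against C5 alone is not given here, so this count is no result about the members. The members' total was 16.6 to 27.0 FPKM in C6 and 25.3 to 71.3 in the other HAP1 libraries, so the ranges shared only 25.3 to 27.0.

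The members lie on a stretch of chromosome 6 that was low as a whole in C6. Between the first and the last HIST1H gene (chr6:25723397-27893891, GRCh38) the annotation places 60 other genes. Of these, 14 were tested, 9 were called lower and 0 higher in C6, and their median log2 difference was -0.52. Among them, BTN2A1, a butyrophilin, was 6.39 against 11.2 FPKM (-0.72, adjusted p = 4.69e-07 from limma) and its relative BTN2A2 5.06 against 8.37 (-0.62, adjusted p = 4.88e-06). ABT1, an activator of basal transcription, was 7.87 against 14.0 (-0.77, adjusted p = 1.81e-05), and the zinc finger gene ZNF391 2.14 against 5.02 (-0.92, adjusted p = 3.92e-05). For BTN2A1, ABT1 and ZNF391 the libraries of C6 did not overlap those of the other clones.

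Along chromosome 6 the differences fell into 2 ranges, with an edge near 40 Mb that was chosen after the values were seen. Before the edge, 198 of 264 tested genes other than the members were called, all 198 lower in C6, with a median log2 difference of -0.70 and quartiles of -0.88 and -0.47. The medians were 0.17 from 40 to 59 Mb (93 genes) and 0.12 beyond 59 Mb (286 genes). Of the 264 genes, 15 had a lower difference than HIST1H2BK, 85 a lower one than HIST1H2AC and 104 a lower one than HIST1H1C. HIST1H2BD, HIST1H2BN and HIST1H2BC were above 205, 209 and 255 of them. On the log2(FPKM + 1) scale HIST1H2AC and HIST1H1C thus lay within the middle of this range, and HIST1H2BK near its low end. This scale understates changes of low genes, so these places do not order the members by relative change. In FPKM, HIST1H2AC was 0.757 against 2.56, HIST1H1C 2.16 against 5.07 and HIST1H2BK 9.38 against 20.8. The place of HIST1H2BK depends on C6 replicate 3, without which its difference was -0.82, and the places of the other genes were not recomputed. In the other clones this range was near WT, the median log2 difference being between -0.07 and 0.03 in C1 to C5 against -0.73 in C6, with 0 to 8 genes called per clone against 160 in C6. The number of copies of chromosome 6 was not analysed here, and its part in the result was not tested.

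**Figure D3:**
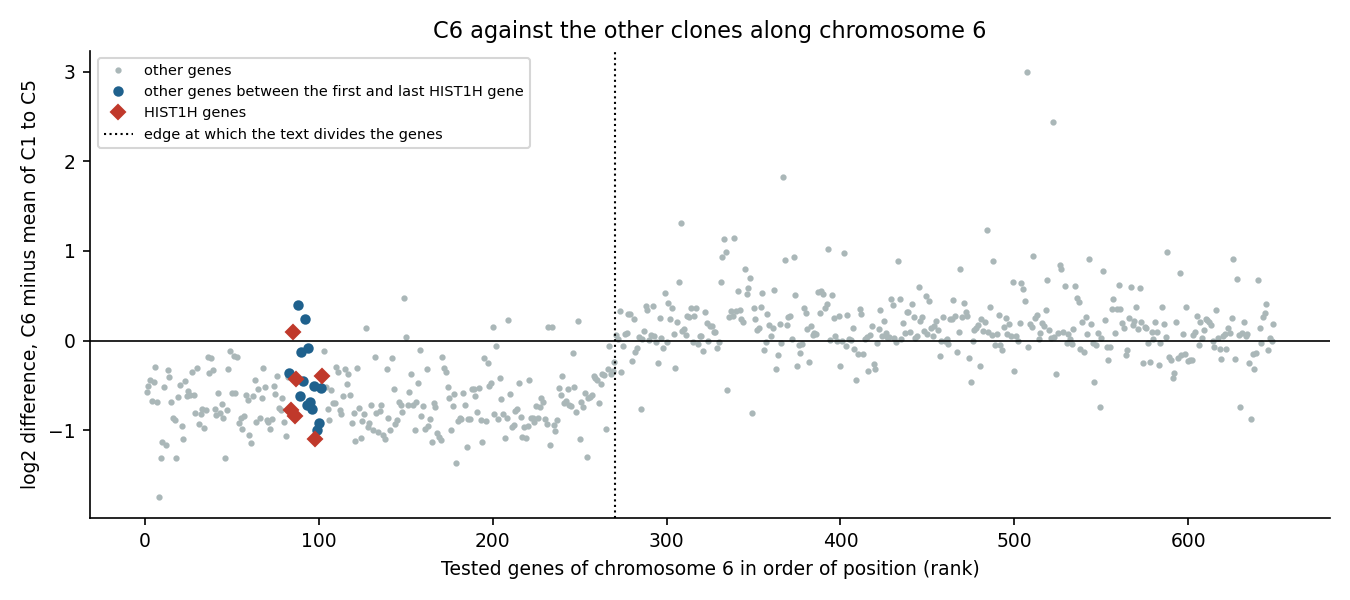
Log2 difference of C6 from the mean of C1 to C5 for each tested gene of chromosome 6, in order of position. The 6 tested clustered histone genes are red diamonds, the 14 other tested genes between the first and last of all HIST1H genes blue points, and all others gray. Genes to the left of the dotted line have a median of -0.70 and those to the right of it medians of 0.17 and 0.12, and 5 of the 6 histone genes lie below 0.

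Other gene groups tied to histone supply were also read in C6 against the other clones. Of the 11 genes of histone transcription control, 2 were called, both lower: CCNE2 (3.58 against 14.5 FPKM, -1.65, adjusted p = 3.11e-05 from limma, no overlap) and CCNE1 (10.0 against 13.9, -0.42, adjusted p = 0.0378), which encode the cyclins E. NPAT, CDK2 and the other 7 were not called. Of 18 genes of 3′ end processing and turnover, 1 was called, LSM11, which was higher (6.90 against 5.07 FPKM, 0.36, adjusted p = 0.0401). SLBP was among those not called. Of 14 histone chaperones, only DAXX, which loads H3.3 and lies on the low stretch of chromosome 6, was called (16.8 against 36.8 FPKM, -1.07, adjusted p = 4.51e-06).

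Of the 3 tested histone genes of the other clusters, 0 were called by limma and 1 had an unadjusted p under 0.05. Of 10 tested replication-independent histone genes, H2AFY2, a macroH2A gene, was higher (19.8 against 12.1 FPKM, 0.70, adjusted p = 9.18e-06) and H3F3B, an H3.3 gene, lower (290 against 398, -0.46, adjusted p = 0.00179). Of 20 S phase genes only MCM3, a subunit of the replicative helicase, was called, and it was higher (129 against 103, 0.33, adjusted p = 0.0161). MCM3 lies on chromosome 6 between 40 and 59 Mb, where 20 genes were called higher and 2 lower. Against WT, C6 had 3 of the 20 S phase genes called, all 3 lower, with a median log2 difference of -0.24. Over all genes 5.39% were called lower in that comparison. Of 15 genes of G2 and mitosis, the kinase gene TTK was higher than in the other clones (42.9 against 33.3, 0.37, adjusted p = 0.0184) and CDK1 lower (116 against 138, -0.24, adjusted p = 0.0242). TTK lies on chromosome 6 beyond 59 Mb, where 47 genes were called higher and 8 lower. The median log2 differences of these 7 lists from the other clones were between -0.06 and 0.11. Of the 9 tested RNAs without a poly(A) tail, 0 were called by limma, with 0 at an unadjusted p under 0.05. Among the markers, KIT was higher in C6 (4.46 against 1.34, 1.28, adjusted p = 0.000727), and KRT8 (1.49 against 4.54), EPCAM (0.426 against 3.27) and KRT18 (17.7 against 24.5) were lower. The part of these in the histone values was not tested.

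Against WT, no member passed the test in any clone. C6 had 6 members tested, all 6 with a lower value than WT and 0 called, while 11.7% of all genes were called and 5.39% were called lower. HIST1H2AC came closest (0.757 against 2.09 FPKM, log2 difference -0.81, standard error 0.252, adjusted p = 0.0676 from limma). HIST1H2BK was 9.38 against 21.8 FPKM (-0.99, adjusted p = 0.227), with overlap through the WT library of 5.68. In C5, 7 of 7 members had a lower value than WT, with a median of -0.20 and 0 called, against 7.55% of all genes. At an unadjusted p under 0.05 from limma, C6 had 1 of 6 members, against 3533 of all 13371 genes. C5 had 0 of 7 members, against 3076 of 13164 genes.

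In C1 0 of 7 members were called, against 0.479% of all genes. The same count was 0 of 7 for C2 (0.732% of all genes), 0 of 7 for C3 (0.0911%), 0 of 8 for C4 (0.160%) and 0 of 9 for EV (0.0380%). The members' median log2 difference was 0.41 for C3, 0.28 for C1, 0.00 for C4, -0.10 for EV and -0.32 for C2, against -0.59 for C6. In these 5 comparisons same-numbered libraries deviated together, and when the fit was blocked by replicate number 0 members were called as well, while the genes called were 197 in place of 63 in C1, 161 in place of 96 in C2, 82 in place of 12 in C3 and 319 in place of 21 in C4. At an unadjusted p under 0.05 there were 2 members in C3, 1 in EV and 0 in C1, C2 and C4. Over all genes there were 633 of 13179 in C3 and 274 of 13153 in EV. The same count was 1542 of 13160 in C1, 1666 of 13120 in C2 and 870 of 13125 in C4. In C3, HIST1H1C and HIST1H2AC lay above all WT libraries, and the share of all genes that do so is not given here. HIST1H1C was 7.71 against 3.78 FPKM (log2 difference 0.90, standard error 0.237, unadjusted p = 0.00351, adjusted p = 0.513 from limma), and HIST1H2AC 4.09 against 2.09 (0.71, adjusted p = 0.861). In EV, HIST1H2BN had 0.275, 0.306, 0.511 and 0.431 FPKM, all under the WT libraries, which had 0.710 to 2.16. Its difference of -0.89 (standard error 0.229, unadjusted p = 0.00316) had an adjusted p of 1.00 from limma. These 3 values were chosen after they were seen, and their p-values are from the fits without the block. The mean of the 6 clones against WT called 0 of 6 members and 6.60% of all genes, with a median of -0.08. An unmoderated test with unequal variances also called 0 members in each of these comparisons.

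In HCT116, the clone had 0 of 6 members called against the 11 controls, with 0 at an unadjusted p under 0.05. Of all 12960 genes 0% were called by limma, and 1342 had an unadjusted p under 0.05. HIST1H2BD had 9.32, 7.63, 2.13 and 8.64 FPKM in the clone and 0.235 to 10.9 in the controls (median 2.77), a log2 difference of 0.84 (adjusted p = 0.533 from limma). HIST1H3E, an H3 gene, had 3.29, 3.34, 0.441 and 3.59 in the clone and 0.454 to 2.69 in the controls (median 1.57), a difference of 0.51 (adjusted p = 0.587). In both genes the library labelled Clone replicate 3, whose NUP58 level went against its label, was far below the other 3. The library labelled EV2 replicate 3, whose NUP58 level also went against its label, had the highest HIST1H2BD of the controls, 10.9, and a HIST1H3E of 2.63, but EV2 replicate 1 was as high, with 9.34 and 2.69. Whether these labels were exchanged was not tested. Without all libraries numbered 3, HIST1H3E was 3.29 to 3.59 in 3 clone libraries and 0.454 to 2.69 in 9 controls, without overlap, a difference of 0.99 (standard error 0.291, adjusted p = 0.0600 from limma). HIST1H2BD then differed by 1.37 (adjusted p = 0.0742). Both remained short of the threshold, although 769 of 13000 genes passed it. HIST1H3E was named here after its values were seen.

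The unedited cells of the 2 lines, 8 HAP1 and 11 HCT116 libraries, differed in 68.0% of 13538 genes. Of 5 tested members 2 were called, in opposite directions. HIST1H1C was 4.56 ± 1.54 FPKM in HAP1 (SD, n = 8) and 8.62 ± 3.92 in HCT116 (SD, n = 11), a log2 difference of -0.74 (standard error 0.222, limma's adjusted p = 0.00565, exact two-sided permutation p = 0.00669). HIST1H2BK was 19.6 ± 9.60 in HAP1 (SD, n = 8) and 11.1 ± 5.62 in HCT116 (SD, n = 11), a difference of 0.76 (standard error 0.327, limma's adjusted p = 0.0447, exact two-sided permutation p = 0.051). The call of HIST1H2BK was not firm, since it was lost in 10 of 19 cases in which a single library was left out and the difference was 0.15 between the wild-type libraries alone. HIST1H2AC (-0.46, adjusted p = 0.0912), HIST1H2BD (-0.29, 0.456) and HIST1H2BC (0.19, 0.503) were not called. The median of all genes was 0.10.

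Several lower members differed between the cell lines once no filter on low values was set, so that 40 members were tested. Then 10 of the 40 were called, 7 higher and 3 lower in HAP1, against 45.4% of 26742 genes. The largest of these differences on the log2 scale was that of HIST1H3E, with 0 to 0.0734 FPKM in the 8 HAP1 libraries and 0.454 to 2.69 in the 11 HCT116 libraries (log2 difference -1.21, adjusted p = 9.94e-06 from limma). HIST1H2BG showed the opposite, with 0.158 to 0.875 in HAP1 and 0 to 0.154 in HCT116 (0.53, adjusted p = 3.86e-06). For both, the exact permutation test gave p = 2.65e-05, the smallest it can give for 8 against 11 libraries. The lack of overlap fixes this value, so it adds nothing to the ranges. In the edited lines HIST1H3E stayed at 0 to 0.295 FPKM in all 24 HAP1 clone libraries. HIST1H4H was 0.975 in HAP1 and 0.192 in HCT116 (0.71, adjusted p = 0.000619) and HIST1H2BJ 1.28 and 0.416 (0.72, adjusted p = 0.00157), both with overlap. HIST1H2AE was listed at 0 in all 11 HCT116 controls and HIST1H2AI in all 8 HAP1 libraries. The other called members were HIST1H3G, HIST1H4C and HIST1H2AG, which were higher in HAP1, and HIST1H1C, which was lower.

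Other genes of histone supply differed in the same comparison. H1F0, which encodes the replication-independent linker histone H1.0, was 0.651 FPKM in HAP1 and 323 in HCT116 (log2 difference -7.57, adjusted p = 1.84e-21 from limma). Of 11 tested replication-independent genes 7 were called, among them H3F3B (-1.37) and H2AFY2 (-0.96), lower in HAP1, and the linker histone gene H1FX (0.96), higher. Of the 3 tested histone genes of other clusters 1 was called, the H2B gene HIST2H2BE, with 2.41 in HAP1 and 0.718 in HCT116 (0.99, adjusted p = 5.19e-06). Of the 18 genes of 3′ end processing and turnover 10 were called, 7 higher and 3 lower in HAP1. ERI1, an exonuclease that trims the histone stem-loop, was 9.97 against 34.1 FPKM (-1.67, adjusted p = 5.63e-13), while NCBP2 (0.61), LSM11 (0.81) and CSTF2 (1.01) were higher in HAP1. In transcription control 4 of 11 were called, all 4 higher, E2F1 (0.88), CASP8AP2 (0.46), CREBBP (0.40) and CCNE2 (0.43).

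Of 14 chaperones 8 were called, all 8 higher in HAP1, led by HIRA (0.46), CHAF1A (0.75), NAP1L4 (0.36) and HJURP (0.57). Of 20 S phase genes 12 were called, 10 of them higher in HAP1, such as POLA1 (1.20) and CDC45 (1.13), while TK1 was lower (-2.04). Of 15 genes of G2 and mitosis 10 were called, 9 higher, among them TOP2A (1.48), KIF11 (1.01) and CCNB2 (0.86), and UBE2C lower (-6.11). All 8 tested epithelial markers were lower in HAP1, led by EPCAM (-6.66), KRT18 (-3.61), KRT8 (-5.88) and KRT19 (-7.85). Of the 17 tested genes that lie among the members on chromosome 6, 10 were called, 5 in each direction, with ZNF204P (-2.69) and HFE (-3.04) lower in HAP1, HCG11 (1.90) higher, and LINC01012 listed at 0 in all 8 HAP1 libraries and at a mean of 2.29 FPKM in HCT116. Except for the tested RNAs without a poly(A) tail, of which 0 of 10 were called by limma with 0 at an unadjusted p under 0.05, these shares lay between 33.3% and 100%, against 68.0% over all genes.

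Members moved together across libraries to different degrees. Over the 32 HAP1 libraries, HIST1H1C and HIST1H2AC had a Pearson's r of 0.81 on the log2 scale (Spearman's rho 0.76), and over the 15 HCT116 libraries of 0.88 (rho 0.85). The r of deviations from the line means was 0.71 and 0.94, and without the 2 libraries farthest from the median of HIST1H1C it was 0.75 and 0.79. HIST1H2AC and HIST1H2BD had 0.68 in HAP1 and 0.83 in HCT116. HIST1H2AC and HIST1H2BC, which share a promoter stretch, had 0.05 and 0.38, and 0.08 and 0.60 without the 2 farthest libraries. HIST1H1C also went with HIST2H2BE of another cluster, with 0.88 and 0.78. In C1, C2, C3 and C4, HIST1H1C and HIST1H2AC were both higher in replicates 2 and 4 than in replicates 1 and 3. This held for neither gene in WT, EV, C5 or C6. The part of the replicate number in these relations was not tested. These values describe libraries that share cell line and depth, 20 relations were computed in all, and no test was made.

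Libraries with high HIST1H2AC tended to have low mitotic genes in HCT116. The summed FPKM of the 15 genes of G2 and mitosis ran from 535.7 to 1922.6 in HCT116 and from 887.2 to 1500.4 in HAP1. Its r with HIST1H2AC was -0.75 in HCT116 (rho -0.77, n = 15) and -0.49 in HAP1 (rho -0.29, n = 32), where it fell to -0.24 without the 2 farthest libraries. The sum of the 20 S phase genes had an r of -0.65 with HIST1H2AC in HCT116 and of -0.22 in HAP1, or -0.78 and -0.03 without the 2 farthest libraries. In HCT116 the library labelled Clone replicate 3 had a mitotic sum of 1321.6 against 662.2 as the lowest of its line, and the lowest HIST1H2AC value of its line, 1.01. Both values also went in part with the replicate number. The HCT116 libraries numbered 1 had mitotic sums of 535.7 to 834.2 and HIST1H2AC of 3.17 to 7.82 FPKM. The controls WT, EV1 and EV2 numbered 2 had 1258.5 to 1521.8 and 2.62 to 3.49. Clone replicates 2 and 4 had 753.9 and 662.2, and 4.66 and 6.70. The part of the replicate number was not tested.

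**Figure D4:**
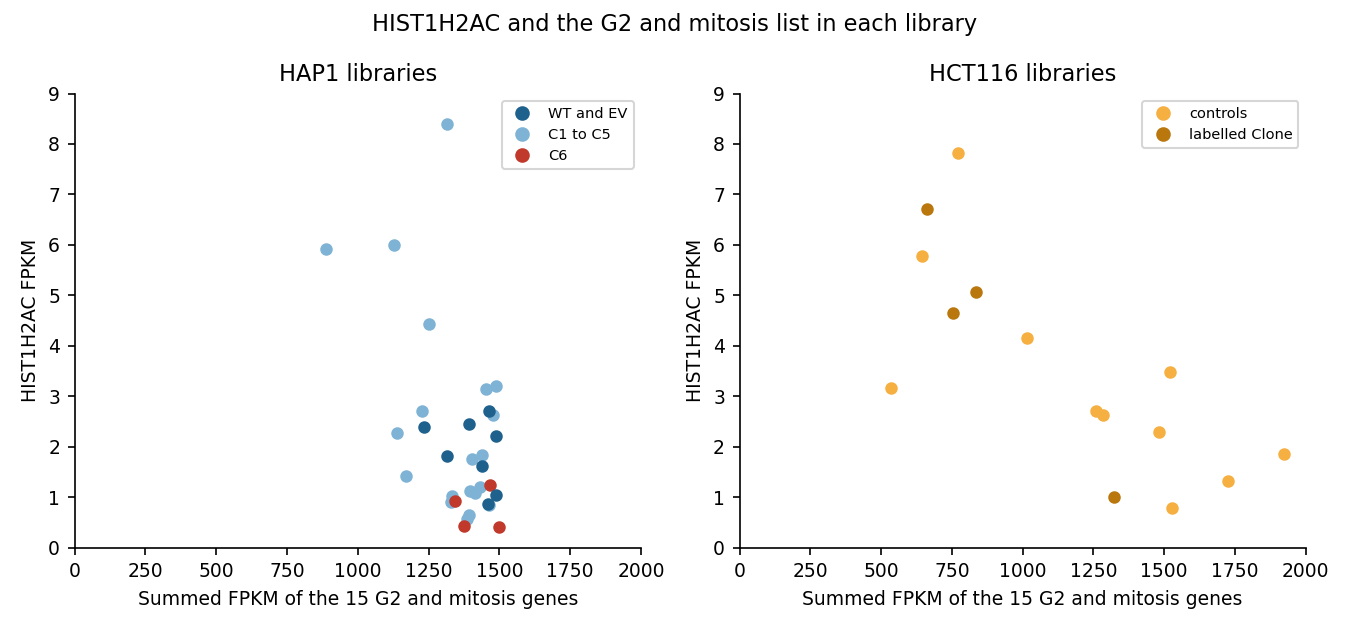
HIST1H2AC FPKM (vertical) against the summed FPKM of 15 genes of G2 and mitosis (horizontal) in each HAP1 library (left) and HCT116 library (right). Colors mark unedited lines, clones C1 to C5 and C6 in HAP1, and controls and the libraries labelled Clone in HCT116. Points fall from upper left to lower right in HCT116 (r = -0.75), while most HAP1 libraries lie within a narrow range of the sum and the r there (-0.49) rests in part on 2 libraries.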

How the data were processed

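RNA-seq was read from 32 HAP1 and 15 HCT116 libraries. The authors sequenced paired ends, aligned them with STAR to GRCh38 and estimated FPKM per gene with RSEM, and the deposited FPKM were not normalized further. Tool versions, annotation release, library selection and strand setting are not given in the sources used here. All 47 sample columns were used, with groups taken from the sample labels.

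From these values log2(FPKM + 1) was computed, genes with a mean under 1 FPKM over the compared libraries were left out, and limma 3.58.1 (R 4.3.3) was fitted with a trended prior. The fit of all HAP1 lines, with no term for the replicate number, gave C6 against C1 to C5, and separate fits gave the other comparisons. Adjusted p-values are Benjamini-Hochberg values over all genes tested. Exact permutation tests used scipy 1.17.1 and treated the libraries as exchangeable, although those of a line repeat that line. Positions came from GENCODE 44, which held 56417 of 57507 genes by ID. HIST1H3B and HIST1H3C were placed through RefSeq, which also gave the promoters.

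The members and gene lists were chosen with earlier results of these data known. The text names NUP58, the called members of the C6 comparison (up to 10 on each side) and of each other comparison (up to 3 by p-value), the 10 members with the highest mean over lines, and up to 4 called genes a list by p-value in the C6 and cell line comparisons, of which 1 gene is not reported here. Other genes were named after their values were seen, as were the F test, the edge on chromosome 6 and the comparison without doubtful controls.

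Labels number the replicates 1 to 4 in each line. Deviations from line means correlated above 0.1 with those of the same-numbered WT library in 24 of 28 pairs (-0.375 to 0.747), and in all 4 pairs for 5 of 7 lines. Between C6 and C1 to C5 they did so in 13 of 20 pairs, and for no line in all 4. The labels do not say what a number marks. From these correlations the numbers were taken as pairing C1 to C4 and EV with WT, and not the other comparisons. The differences, standard errors and p-values printed for these pairs are from fits without the block, with counts from the blocked fits beside them. Alternatives covered the pseudocount, the filter, TPM and median-ratio scaling, the prior, an unmoderated test, the replicate block, other reference lines and each library left out.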

Additional observations from a re-analysis of the deposited data

Results flagged for a closer look

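Among 97 groups of 4 libraries examined (the tested members, HIST1H2BJ, HIST1H3E, HIST1H4H and the members' total), 9 had a library whose gap to the nearest other exceeded Dixon's critical share of the group's range at 95%. For normally distributed values chance flags about 1 in 20. FPKM near 0 are not so distributed, and where the other 3 libraries are at 0 any value above 0 is flagged. The 9 groups therefore cannot be weighed against 1 in 20. HIST1H3E in HCT116 was 0.441 FPKM in the library labelled Clone replicate 3, against 3.29 to 3.59 in the other 3. This library also had the NUP58 level of a control (44.7 FPKM), and the part of its label in the value was not tested.

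HIST1H3E gave 4 further groups through values near 0 in HAP1. They were 0.295 in C1 replicate 3 (0 to 0.0351 in the other 3), 0.0697 in C3 replicate 4, 0.0377 in C4 replicate 3 and 0.0346 in C6 replicate 1, the last 3 against libraries all listed at 0. HIST1H4H was 2.06 FPKM in C3 replicate 4 against 0.629 to 0.868, and 0.84 in C6 replicate 3 against 0.104 to 0.174. HIST1H2BJ was 2.04 in C2 replicate 3 against 0 to 0.334. The total of the 55 members was 49.6 FPKM in C2 replicate 4 against 30.8 to 33.9.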

How the results depend on the processing

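The number of members called in C6 against the other clones was 2 of 6 tested, against 16.3% of all genes. It was 1 with an unmoderated test and 0 against C2, C4 or C5 alone. With 1 library left out it was 0 (without C6 replicate 3) to 3 (without C1 replicate 3). HIST1H2BD (0.01 against C2 alone) and HIST1H2BC (-0.17 against C4 alone) turned direction, neither of them called. Against WT, C6 had 0 members called, and 1 with no filter, with TPM scaling, without the trend or with EV as the reference, and 0 to 1 with a library left out (1 without WT replicate 1). With EV as the reference, C5 and the mean of the 6 clones each had 1 member called in place of 0. Between cell lines 2 of 5 tested members were called (68.0% of all genes), and 10 of 40 with no filter (45.4%). The count was 6 with TPM scaling, 1 with median-ratio scaling, with an unmoderated test, with the replicate block or without the 3 doubtful controls, and 1 to 2 with a library left out. Filter and scaling settings change which genes are tested. The numbers tested and the shares over all genes are not given for each alternative, so a changed count need not be a changed result about the members. The F test called 2 members, 0 without C6 and 0 (without C5 replicate 1) to 3 (without WT replicate 1) with a library left out. A line mean of 0.5 was reached by 27 members and one of 5 by 3, in place of 15 at 1 FPKM.

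With the replicate block, 3 members in place of 2 were called in C6 against the other clones (3164 in place of 2148 genes), the added one being HIST1H1C (-0.78, limma, adjusted p = 0.0344), and the F test called 5. The block called 0 members in every comparison with WT, as without it, and changed no other call of a member than these and that of HIST1H2BK between the cell lines (adjusted p = 0.0604, limma). C5 had 2147 genes called in place of 994. FPKM hide the fragment count, so the precision of low members is unknown. The causes of these shifts were not tested.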

Other observations

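The 12 HIST1H rows with a pseudogene ending were nearly silent. Of these, 8 were listed at 0 in all 47 libraries, their sum was 0 to 1.25 FPKM per library, and HIST1H3PS1 had the highest mean, 0.0831 FPKM.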
